A study of Homo sapiens with 15 samples.

Results

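The 48 genes described here are cell cycle and DNA replication genes that are widely read as markers of proliferation. They were taken by symbol from the 60675 genes counted in HT1080 cells, a human fibrosarcoma line. All 48 passed the filter on low counts, which kept 19535 genes. By textbook role 19 of the members act at entry into S phase or in DNA replication and 29 act in G2 or mitosis.

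The 5 groups of 3 libraries were compared, and every group had received an inhibitor of a lysine deacetylase (KDAC, also called HDAC). The 6CD1m cells (KDAC6 H216A, first catalytic domain inactive) and the 6CD2m cells (KDAC6 H611A, second catalytic domain inactive) were given 1 µM Tubastatin A, an inhibitor of KDAC6, for 2 days. The 8CDm cells (KDAC8 H143A, catalytically inactive) were given 5 µM PCI-34051, an inhibitor of KDAC8, for 2 days. WT cells were given 1 µM Tubastatin A or 5 µM PCI-34051 for 14 days. The mutant lines were edited with CRISPR/Cas9. They were treated for 2 days and the WT cells for 14 days. Line and length of treatment therefore changed together in each comparison of a mutant with WT and cannot be told apart. Untreated cells are not analysed here, so no comparison below gives the effect of an inhibitor by itself. The libraries of a group are numbered replicates, and where the numbers stand for repeat samples of 1 culture the p-values measure only the spread between those samples.

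Cells that pass from G1 into S phase express a first wave of genes, largely under E2F transcription factors, whose products load and fire the replicative helicase and supply nucleotides. A second wave in G2 and mitosis, under the MuvB complex with B-MYB and FOXM1, supplies the cyclin B kinase, the spindle, the checkpoint and the machinery that separates the chromosomes. Because both waves depend on cell cycle phase, the RNA of a bulk culture reflects how many cells are cycling as well as how much RNA each of them holds, and in these data fewer cells in a phase and less RNA per cell cannot be told apart.

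The letters that E2F and MuvB are known to bind were looked for in the RefSeq promoter windows of the members (GRCh38.p14, 250 bases before to 50 after the gene start, 300 bases in all), which were found for 39 of the 48. The following stretches lie before the start of 3 members that fell in 8CDm cells, written 5′ to 3′ on the strand of the gene, with E2F forms (TTTCCCGC, TTTGGCGC, TTTGCCGC or TTTCGCGC on either strand) and any CCAAT box in capitals. TK1 and CDC45, which also fell in these cells, had no E2F form in their windows, and CDC6 had one only after its start. E2F forms also lay before the start of MCM3, MCM6, MCM7, GINS2 and PCNA, which were not among the members that fell in 8CDm cells. The E2F1 stretch lies at chr20:33686386-33686425 on the minus strand, CDC25A at chr3:48188438-48188477 on the minus strand and CDT1 at chr16:88803738-88803777 on the plus strand.
E2F1: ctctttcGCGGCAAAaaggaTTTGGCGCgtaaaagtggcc
CDC25A: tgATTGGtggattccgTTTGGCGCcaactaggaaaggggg
CDT1: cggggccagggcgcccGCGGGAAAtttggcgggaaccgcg

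The next stretches come from 4 mitotic members whose change relative to WT differed between 6CD2m and 8CDm cells. Capitals mark TTTGAA or TTTAAA on either strand, the core of the cell cycle genes homology region that MuvB binds, and any CCAAT box, which is the NF-Y site. Among the other members whose change differed, CENPF had TTTAAA before its start and KIF2C had it across its start. BUB1, which differed most, had neither TTTGAA nor TTTAAA in its window. The PLK1 stretch lies at chr16:23678843-23678882 on the plus strand, BUB1B at chr15:40161029-40161068 on the plus strand, CENPE at chr4:103198383-103198422 on the minus strand and MKI67 at chr10:128126430-128126469 on the minus strand.
PLK1: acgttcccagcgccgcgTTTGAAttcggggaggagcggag
BUB1B: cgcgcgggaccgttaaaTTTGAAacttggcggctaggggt
CENPE: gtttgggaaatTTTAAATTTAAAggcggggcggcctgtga
MKI67: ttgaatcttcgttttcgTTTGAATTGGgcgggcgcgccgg

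An E2F form was present in 10 of the 16 G1/S and replication windows (62.5%), in 2 of the 23 G2 and mitosis windows (8.70%) and in 4.44% of the 15843 windows of protein-coding genes. TTTGAA or TTTAAA was present in 19 of the 23 G2 and mitosis windows (82.6%), in 4 of the 16 of the other class (25.0%) and in 19.5% of all windows. CCAAT was present in 30 of the 39 member windows (76.9%) and in 36.4% of all windows. The 2 classes drawn from textbook roles thus also differed in the letters of their windows. Some matches lay only after the start, namely the E2F forms of MCM2, CDC6 and CDK1 and the TTTGAA of MAD2L1. TTTAAA reads the same on both strands, TTTGAA and CCAAT can overlap by a base as they do in MKI67, and TTTGGCGC can overlap TTTCGCGC on the other strand. A match is a description of letters and not evidence of binding.

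Library totals on genes ran from 10932455 to 19983710. All 8 mesenchymal markers were expressed, at a summed 4714 to 8084 CPM (counts per 1000000 of the scaled library size) in every library, whereas 4 haematopoietic markers summed to 0 to 0.589 CPM, 5 epithelial markers to 3.76 to 13.1 CPM and 3 endothelial markers to 0.258 to 3.49 CPM. On the log2 scale and relative to its mean over libraries, the average member was at 0.06 in 6CD1m replicate 1, against 0.41 and 0.50 in the other two 6CD1m libraries, and at 0.12 in replicate 1 of WT cells on PCI-34051, against -0.27 in both of the others. These libraries also differed from their groups in the slope of log2 ratio on GC content. It was 0.36 per 10 points of GC content in 6CD1m replicate 1 against 0.08 and -0.07 in the others, and -0.04 in replicate 1 of WT cells on PCI-34051 against 0.29 and 0.25. The median GC content was 51.4% in the G1/S and replication members, 43.2% in the G2 and mitosis members and 48.2% in all genes tested.

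Members were expressed in every library, with at least 32 counts each. Averaged over libraries and per kb of transcript, MCM7, a subunit of the replicative helicase, was highest at 106 CPM per kb, followed by CDC20 at 74.2 and PCNA at 70.7, and the E-type cyclins were lowest (CCNE1 at 2.43 and CCNE2 at 1.5). The highest group mean of a member was between 1.48 times (MCM7) and 3.30 times (TK1) its lowest group mean, with a median of 2.01 times. When all 5 groups were compared at once, 30 of the 48 members differed by edgeR's quasi-likelihood test at the study's false discovery rate of 0.001, beside 24.6% of all genes tested. They were 13 of the 19 G1/S and replication members and 17 of the 29 G2 and mitosis members. Without replicate 1 of WT cells on PCI-34051 the number was 40.

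**Figure D1:**
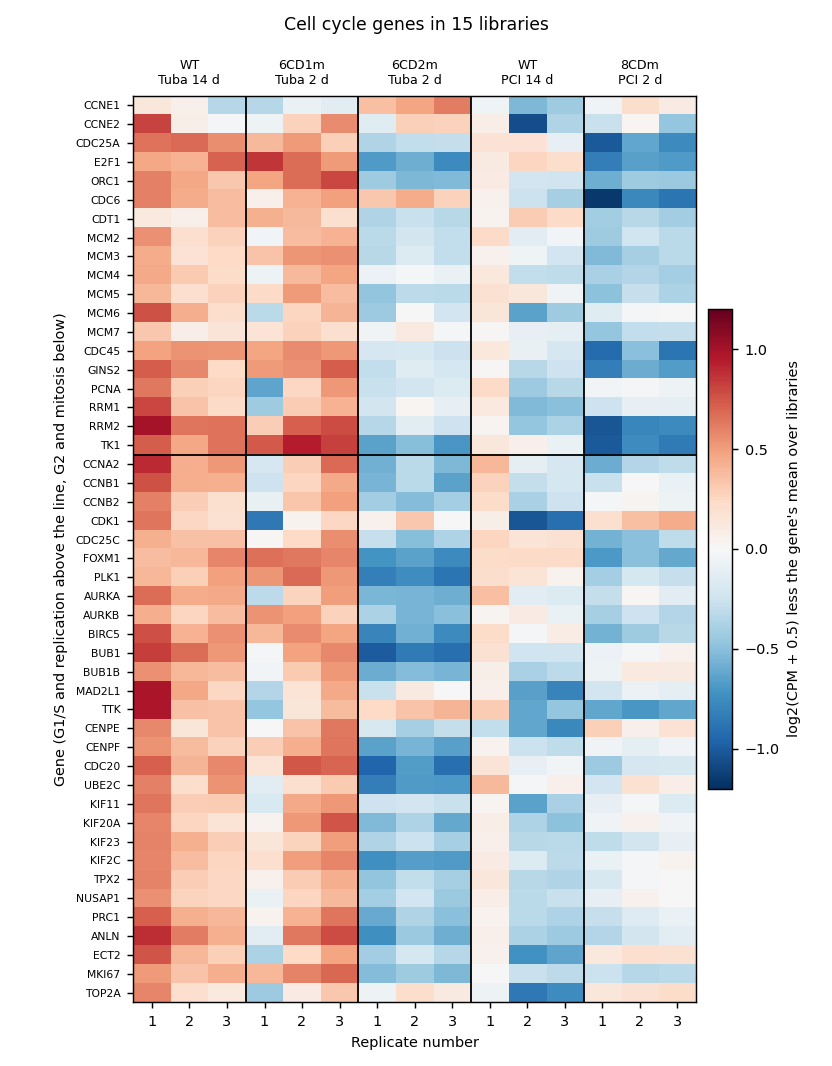
Expression of the 48 members (rows, grouped by class and role) in the 15 libraries (columns, by group and replicate), as log2(CPM + 0.5) less the mean of the gene over libraries. WT cells on Tubastatin A and 6CD1m cells are mostly above the mean, with member averages of 0.06 to 0.61, and 6CD2m cells mostly below it (-0.40 to -0.27).

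Members mostly moved together across libraries. The median Pearson r over the 1128 pairs of members was 0.74 across the 15 libraries and 0.75 across the deviations from group means, so the agreement was present among replicates of a group too. It was 0.86 for the deviations of G2 and mitosis pairs and 0.63 for those of G1/S and replication pairs. These correlations share libraries, depth and GC bias and are given as a description. Against the average member profile over 15 libraries, the closest members were KIF23 (r = 0.98), PRC1 (r = 0.98) and ANLN (r = 0.98), all of the central spindle or cleavage furrow. The most distant were TOP2A (r = 0.44), CDK1 (r = 0.32) and CCNE1 (r = -0.25). Genes outside the list with a similar profile included HIST1H2BJ (r = 0.99), a histone gene, STMN1 (r = 0.99), which encodes a microtubule destabiliser, EXO1 (r = 0.99), an exonuclease of DNA repair, and CDCA2 (r = 0.98).

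Cell cycle genes were lower in 6CD2m cells than in WT cells on the same inhibitor. Of the 48 members 29 fell and 0 rose, beside 7.22% of all genes tested that fell. The median log2 fold change was -0.81 over the members and -0.01 over all genes tested, and 47 of the 48 values were below 0. It was -0.63 in the G1/S and replication class, where 9 of 19 fell, and -0.93 in the G2 and mitosis class, where 20 of 29 fell. In 41 members all 6CD2m libraries were below all WT libraries, beside 26.4% of all genes tested, and in 1 (CCNE1) all were above, beside 23.6%. Leaving out a single library of either group left 15 to 21 members, with 15 when either replicate 1 was left out and all of them lower. The 8 mesenchymal markers also summed lower in 6CD2m cells (4714 to 5296 CPM, against 7109 to 7938 CPM in WT cells on Tubastatin A) and the 3 endothelial markers, near 0, higher (2.84 to 3.49 CPM against 0.829 to 1.297 CPM), as were the 5 epithelial markers (7.73 to 9.24 CPM against 3.76 to 7.28 CPM). Their part in the result was not tested.

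The largest fall was that of BUB1, a kinase of the spindle checkpoint. BUB1 was at 118, 105 and 95.3 CPM in WT cells on Tubastatin A and at 32.9, 36.6 and 35.1 CPM in 6CD2m cells. The 6CD2m libraries were all below a lowest WT value of 95.3 CPM, and the log2 fold change was -1.61 (SE 0.15, adjusted p = 1.2e-06). This and every adjusted p that follows is from the quasi-likelihood test of edgeR, adjusted over all genes tested by the Benjamini-Hochberg method. CDC20, the activator of the anaphase-promoting complex, was at 203, 164 and 184 CPM in WT cells and at 63.5, 77.2 and 65.5 CPM in 6CD2m cells (log2 fold change -1.42, SE 0.15, adjusted p = 3.2e-06). The complex's ubiquitin-conjugating enzyme UBE2C changed by -1.21 (SE 0.15, adjusted p = 2.1e-05), so both members that serve this complex fell. BIRC5, or survivin, a subunit of the chromosomal passenger complex, was at 106, 82.3 and 89.9 CPM in WT cells and at 35.2, 41.0 and 35.9 CPM in 6CD2m cells (log2 fold change -1.31, SE 0.11). ANLN, the anillin of the cleavage furrow, was at 268, 221 and 195 CPM against 86.3, 106 and 95.9 CPM (log2 fold change -1.25, SE 0.20). Neither gene had overlapping groups.

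Among the 8 regulators of mitotic entry 6 fell. FOXM1, the transcription factor of the second wave, was at 122, 125 and 142 CPM in WT cells on Tubastatin A and at 57.5, 60.5 and 55.7 CPM in 6CD2m cells (log2 fold change -1.17, SE 0.08, adjusted p = 7.8e-08). PLK1, the mitotic polo kinase, was at 149, 138 and 159 CPM against 63.6, 66.9 and 61.2 CPM (log2 fold change -1.22, SE 0.09, adjusted p = 1.0e-07). In both genes all WT libraries were above all 6CD2m libraries. CCNB1, which encodes the cyclin that drives mitosis, was at 160, 127 and 126 CPM against 63.5, 74.6 and 59.7 CPM (log2 fold change -1.06, SE 0.18, adjusted p = 0.00031). Its kinase partner CDK1 stood apart from it. CDK1 was at 52.5, 40 and 38.1 CPM in WT cells and at 34.8, 42.1 and 33.5 CPM in 6CD2m cells, with overlapping groups and a log2 fold change of -0.24 (SE 0.28, adjusted p = 0.55).

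Of the 8 checkpoint and chromosomal passenger members 5 fell, of the 9 spindle and cytokinesis members 6, and of the 2 mitotic chromosome members 1. The spindle and cytokinesis members ranged from -1.25 (ANLN) to -0.68 (KIF11), and KIF2C, a kinesin that depolymerises microtubules, changed by -1.11 (SE 0.12). MKI67, the gene of the proliferation antigen Ki-67, was at 597, 532 and 566 CPM in WT cells and at 291, 310 and 288 CPM in 6CD2m cells (log2 fold change -0.93, SE 0.10, adjusted p = 5.1e-06). The groups were far apart for this gene. TOP2A, the topoisomerase that untangles mitotic chromosomes, was at 376, 288 and 273 CPM against 240, 291 and 269 CPM, with overlapping groups (log2 fold change -0.23, SE 0.21, adjusted p = 0.44). The checkpoint kinase gene TTK likewise overlapped, at -0.26 (SE 0.24, adjusted p = 0.45).

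Among the replication genes, TK1, the thymidine kinase of nucleotide salvage, fell furthest. TK1 was at 62.9, 52.6 and 59.8 CPM in WT cells on Tubastatin A and at 24.2, 26.5 and 23.1 CPM in 6CD2m cells (log2 fold change -1.25, SE 0.11, adjusted p = 4.7e-07). E2F1, the transcription factor of the first wave, was at 40.7, 39.4 and 48.2 CPM against 18.1, 19.3 and 17.1 CPM (log2 fold change -1.24, SE 0.11, adjusted p = 1.0e-06). RRM2, a subunit of ribonucleotide reductase, was at 131, 102 and 103 CPM against 51.5, 60.1 and 54.8 CPM (log2 fold change -1.02, SE 0.16, adjusted p = 0.00013). The groups were separate for these 3 genes. The helicase subunit MCM2, at 285, 224 and 237 CPM against 156, 167 and 159 CPM, was also separate but did not pass the threshold (log2 fold change -0.63, SE 0.13, adjusted p = 0.0016). PCNA, the sliding clamp of the replication fork, was at 145, 114 and 111 CPM against 77.2, 79.4 and 83.4 CPM and did not pass either (log2 fold change -0.62, SE 0.23, adjusted p = 0.045).

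Origin licensing genes were spread from clear falls to values near 0. Of the 11 licensing and helicase members 5 fell (ORC1, GINS2, CDC45, MCM5 and MCM3, by log2 fold changes of -0.99 to -0.55), while the helicase loader CDC6 was at 57.7, 51.6 and 49.0 CPM in WT cells and at 47.5, 51.5 and 45.8 CPM in 6CD2m cells. CDC6 overlapped between the groups, at a log2 fold change of -0.13 (SE 0.14, adjusted p = 0.53), and MCM7 did so at -0.17 (SE 0.09, adjusted p = 0.16). The G1/S phosphatase gene CDC25A fell from 36.9, 37.6 and 34.5 CPM to 17.9, 18.8 and 18.9 CPM (log2 fold change -0.97, SE 0.12). The E-type cyclins, which start S phase, did not pass the threshold. CCNE2 was at 8.73, 5.06 and 4.74 CPM in WT cells and at 4.26, 5.93 and 5.90 CPM in 6CD2m cells (log2 fold change -0.20, SE 0.31, adjusted p = 0.66), and its sign turned without WT replicate 1. CCNE1 was the one member above 0, at 0.57 (SE 0.19, adjusted p = 0.034).

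**Figure D2:**
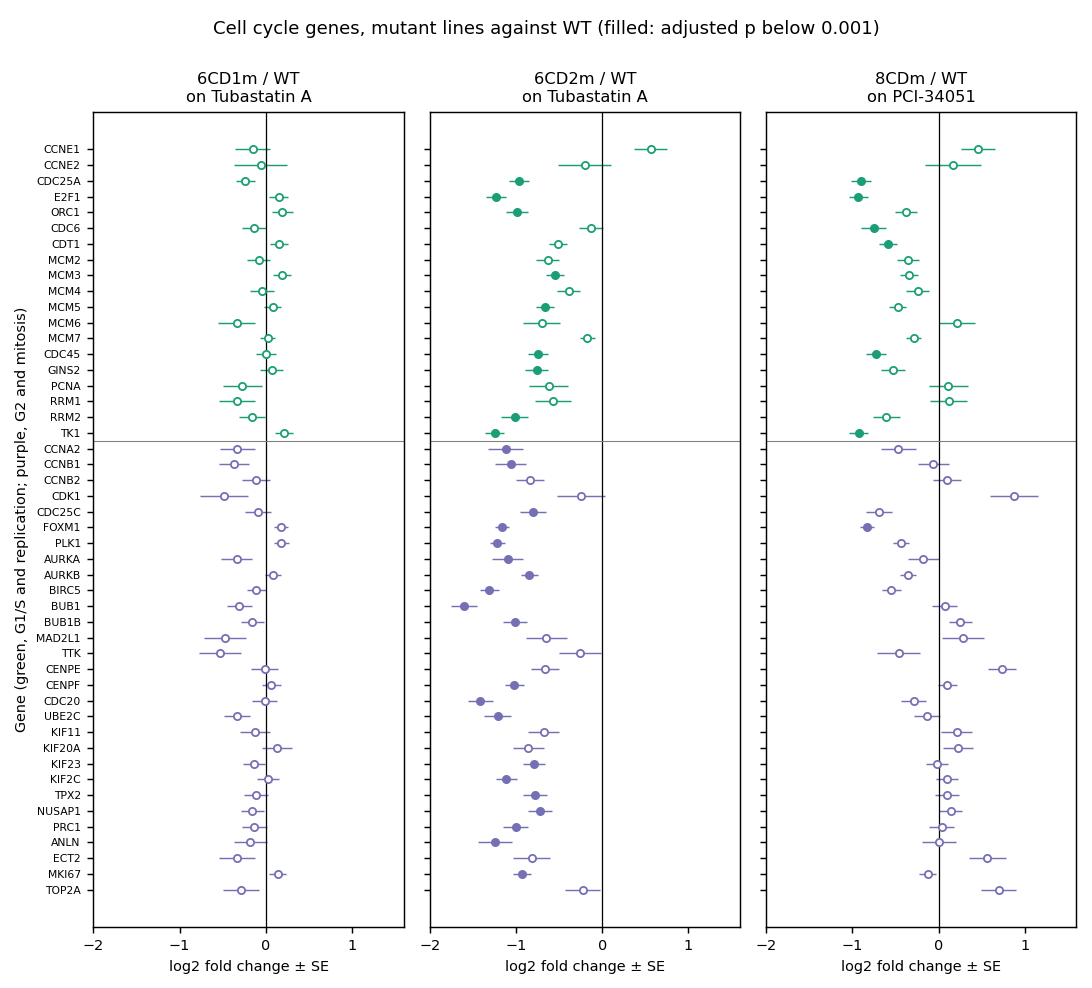
Log2 fold change ± SE of each member in the mutant lines against WT cells on the same inhibitor. Filled points passed an adjusted p of 0.001 in edgeR's quasi-likelihood test, of which there are 0 for 6CD1m, 29 for 6CD2m and 7 for 8CDm cells, all of them below 0.

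No member passed in cells with an inactive first catalytic domain. Between 6CD1m and WT cells on Tubastatin A 0 of the 48 members differed by edgeR's quasi-likelihood test, beside 0.793% of all genes, and 0 did at a false discovery rate of 0.05, beside 9.40% of all genes. DESeq2 gave 0 members as well, beside 3.42% of the genes it tested. At an unadjusted p under 0.05 there were 2, beside 32.0% of all genes. The log2 fold changes ran from -0.53 to 0.22 around a median of -0.11, and 32 were below 0. BUB1 was at 65.7, 92.7 and 99.2 CPM in 6CD1m cells, CDC20 at 138, 207 and 200 CPM and MKI67 at 553, 634 and 676 CPM, and each overlapped with the WT libraries. Replicate 1 was the lowest 6CD1m library for these 3 genes. The class medians were -0.04 (G1/S and replication) and -0.13 (G2 and mitosis), and without single libraries they ran from -0.17 to 0.05 and from -0.28 to -0.02. A difference that misses the threshold does not show that the groups were alike, and the SE of a member ran up to 0.31 (CCNE2).

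The 2 catalytic domains of KDAC6 can be compared with the same inhibitor, dose and time. Of the 48 members 25 were lower in 6CD2m than in 6CD1m cells and 0 were higher, beside 6.54% of all genes that were lower. They were 10 of the 19 G1/S and replication members (median log2 fold change -0.66) and 15 of the 29 G2 and mitosis members (median -0.79), with a median over all genes tested of -0.05. The 5 largest differences were in TK1 (-1.46, SE 0.11), CDC20 (-1.40, SE 0.15), PLK1 (-1.40, SE 0.09), E2F1 (-1.38, SE 0.11) and FOXM1 (-1.34, SE 0.08).

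In 6CD1m cells TK1 was at 63.3, 73.2 and 67.1 CPM and PLK1 at 163, 181 and 161 CPM, above all of the 6CD2m values already given. E2F1 was at 53.4, 47.0 and 41.9 CPM and FOXM1 at 150, 147 and 142.6 CPM in the same libraries. None of the 5 genes overlapped between the lines. For others the spread among 6CD1m libraries was large, as for PCNA (59.9, 111 and 134 CPM), CDK1 (18.4, 34.5 and 40.02 CPM), TOP2A (185, 269 and 313 CPM) and CCNB1 (79.1, 112 and 129 CPM), with replicate 1 lowest in each. Without that replicate 34 members passed. The median of the G2 and mitosis class was then -0.96, whereas without replicate 3 it was -0.54. The number was 12 without replicate 2 of the 6CD1m cells, and 12 when the 6 libraries were fitted alone. With GC offsets 26 members passed, 5 of the 19 (median -0.47) and 21 of the 29 (median -0.81). The 2 groups are also separate edited lines, and line and domain cannot be told apart.

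The remaining named members had the following values in 6CD1m cells. ANLN was at 132, 224 and 248 CPM, BIRC5 at 81.2, 91.4 and 85.3 CPM and RRM2 at 80.5, 108 and 113 CPM. MCM2 was at 190, 253 and 261 CPM, CDC6 at 39.4, 50.7 and 53.3 CPM and CDC25A at 30.6, 33.4 and 28.4 CPM. CDC25A was lower than in every WT library on Tubastatin A, and CCNE2, at 4.55, 5.90 and 7.32 CPM, was not. TK1, PLK1 and FOXM1 were higher in all 6CD1m libraries than in every one of those WT libraries. For FOXM1 the gap was small, with a lowest 6CD1m value of 142.56 CPM and a highest WT value of 142.45 CPM.

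**Figure D3:**
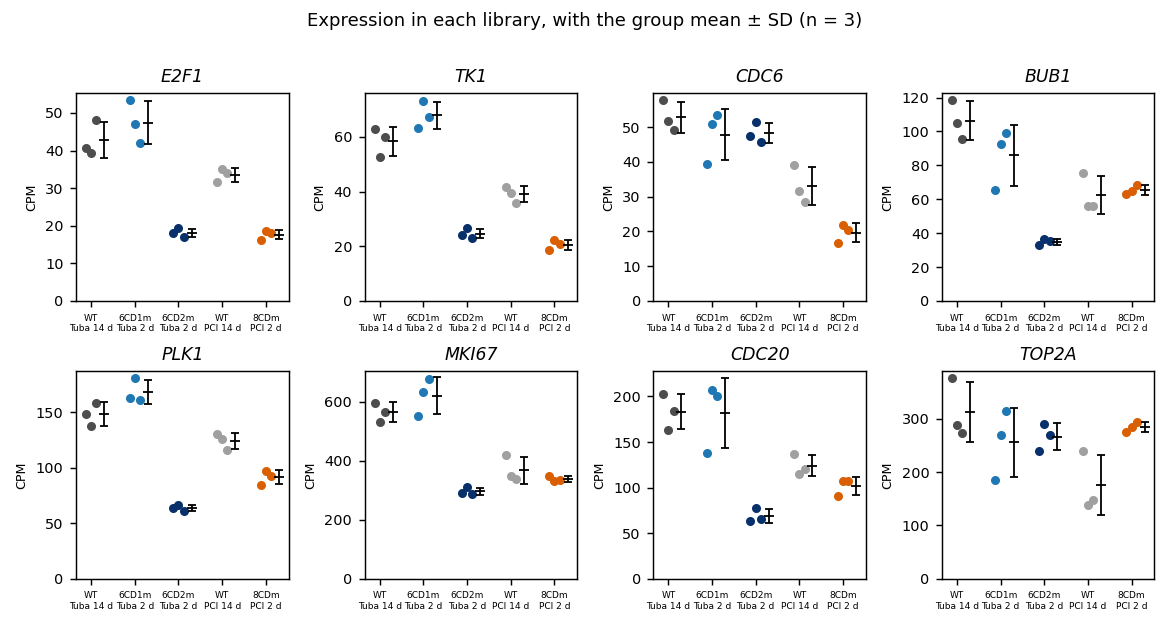
CPM (y axis, from 0) of 8 members in each library by group (x axis), with the group mean ± SD (n = 3) beside the points. E2F1 and TK1 are lower in 6CD2m and 8CDm cells than in the WT cells on the same inhibitor, BUB1 and MKI67 are lower in 6CD2m cells and overlap with WT in 8CDm cells, and CDC6 is lowest in 8CDm cells.

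Of the 48 members 7 were lower in 8CDm cells than in WT cells on PCI-34051 and 0 higher, beside 6.27% of all genes that were lower. Of the 7, 6 belonged to the G1/S and replication class, namely E2F1, TK1, CDC25A, CDC6, CDC45 and CDT1, and the other was FOXM1. With GC offsets 4 of the 7 remained (E2F1, CDC25A, CDC6 and FOXM1). The median log2 fold change was -0.38 in the G1/S and replication class, 0.04 in the G2 and mitosis class and -0.04 over all genes tested. The split of calls between the classes was 7 and 5 with DESeq2 or with no filter, and 4 and 4 without replicate 1 of the WT cells. The 3 endothelial markers summed to 2.76 to 3.28 CPM in 8CDm cells against 0.258 to 0.379 CPM in WT cells on PCI-34051, the 5 epithelial markers to 7.92 to 9.24 CPM against 4.05 to 7.86 CPM, and the mesenchymal markers overlapped (7452 to 7941 CPM against 6056 to 8084 CPM). Their part in the result was not tested.

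E2F1 was at 31.6, 35.1 and 34.1 CPM in WT cells on PCI-34051 and at 16.2, 18.5 and 18.1 CPM in 8CDm cells (log2 fold change -0.93, SE 0.11, adjusted p = 2.2e-05). TK1 was at 41.8, 39.6 and 35.8 CPM against 18.6, 22.3 and 20.8 CPM (log2 fold change -0.93, SE 0.11, adjusted p = 1.2e-05). E2F1 overlapped between 8CDm and 6CD2m cells, and TK1 was lower in all 8CDm libraries. CDC25A fell from 26.2, 26.3 and 21.6 CPM to 11.3, 14.9 and 13.5 CPM (log2 fold change -0.90, SE 0.12, adjusted p = 3.9e-05). FOXM1 was at 111 CPM in all 3 WT libraries on PCI-34051 and at 58.7, 66.8 and 61.6 CPM in 8CDm cells (log2 fold change -0.83, SE 0.08, adjusted p = 2.9e-06). CDC6, which did not pass in 6CD2m cells, was at 39.1, 31.5 and 28.5 CPM in WT cells and at 16.6, 21.8 and 20.3 CPM in 8CDm cells (log2 fold change -0.75, SE 0.14, adjusted p = 0.000998). The groups were separate for all 5 genes.

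No G2 and mitosis member other than FOXM1 passed in 8CDm cells. BUB1 was at 75.2, 55.9 and 56.1 CPM in WT cells on PCI-34051 and at 63.1, 65.1 and 68.6 CPM in 8CDm cells, and MKI67 at 421, 347 and 337 CPM against 350, 330 and 333 CPM (log2 fold change -0.12, SE 0.10, adjusted p = 0.35). CCNB1, at 113, 77.1 and 81.1 CPM against 77.9, 93.8 and 88.7 CPM, overlapped as well (log2 fold change -0.06, SE 0.18, adjusted p = 0.81). In these 3 genes replicate 1 was the highest WT library. TOP2A, at 240, 138 and 148 CPM against 275, 285 and 293 CPM, and CDK1, at 35.3, 16.2 and 17.6 CPM against 38.4, 43.1 and 45.8 CPM, were above all WT libraries but did not pass (log2 fold changes 0.70, SE 0.21, adjusted p = 0.016, and 0.88, SE 0.28, adjusted p = 0.024). The values of both genes are not corrected for the GC slopes of the libraries, and CDK1 has a GC content of 37.0%. Without replicate 1 of the WT cells 3 members were higher and 5 lower.

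Further replication genes stood as follows. RRM2 was at 67.0, 47.3 and 50.2 CPM in WT cells on PCI-34051 and at 31.9, 37.9 and 38.3 CPM in 8CDm cells (log2 fold change -0.61, SE 0.16, adjusted p = 0.0074). MCM2 was at 229, 177 and 191 CPM against 145, 165 and 156 CPM (log2 fold change -0.36, SE 0.13, adjusted p = 0.043). Both were lower in all 8CDm libraries. PCNA, at 109, 68.9 and 74.1 CPM against 91.5, 92.2 and 89.4 CPM, and CCNE2, at 5.07, 2.02 and 3.61 CPM against 3.87, 4.88 and 3.33 CPM, overlapped (log2 fold changes 0.11, SE 0.23, and 0.17, SE 0.32).

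The difference between the classes in 8CDm cells was smaller with GC offsets. The G2 and mitosis median exceeded the G1/S and replication median by 0.41 as fitted and by 0.12 with GC offsets, under which the class medians were -0.10 and -0.22. With the offsets 4 members passed, 3 of them in the G1/S and replication class. In replicates 2 and 3 of the WT cells on PCI-34051 the GC slope was 0.29 and 0.25 per 10 points, and in the 8CDm libraries it was -0.15 to -0.11. In 6CD2m cells against WT cells on Tubastatin A 30 members were lower with the offsets, 26 of them among the 29 without offsets, 6 in the G1/S and replication class and 24 in the other, with class medians of -0.58 and -0.92.

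**Figure D4:**
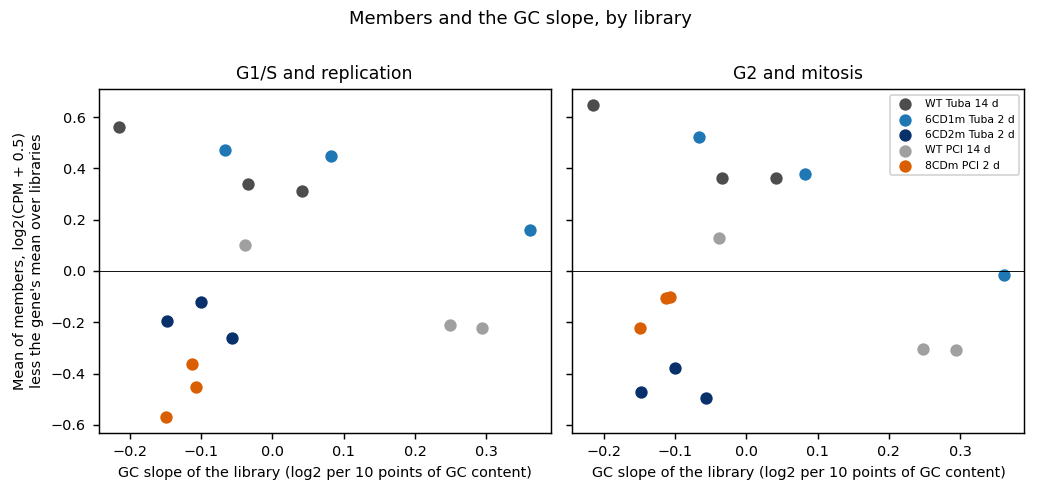
Mean of the members of each class in a library (y axis, log2(CPM + 0.5) less the mean of the gene over libraries) against the GC slope of the library (x axis, log2 per 10 points of GC content), coloured by group. The 8CDm and 6CD2m libraries share slopes of -0.15 to -0.06, and 6CD1m replicate 1 (0.36) and replicates 2 and 3 of WT cells on PCI-34051 (0.29 and 0.25) lie to the right.

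Whether the changes relative to WT differed between 6CD2m and 8CDm cells was tested with an interaction term. The change was lower in 6CD2m cells for 7 of the 48 members and higher for 0, beside 2.65% of all genes in the first direction, and all 7 belong to the G2 and mitosis class. The median difference was -0.93 in that class, -0.23 in the G1/S and replication class and 0.0044 over all genes tested. Each value is the difference of 6CD2m from 8CDm cells less that of the WT groups (Tubastatin A less PCI-34051). In the G2 and mitosis class these had medians of -0.34 and 0.59. BUB1 differed most (-1.68, SE 0.21, adjusted p = 4.4e-05), followed by the kinetochore motor CENPE (-1.39, SE 0.23, adjusted p = 0.00047) and the checkpoint protein BUB1B (-1.26, SE 0.19, adjusted p = 0.00028). KIF2C (-1.21, SE 0.17) and the kinetochore protein CENPF (-1.12, SE 0.16) came next. MKI67 (-0.81, SE 0.14) and PLK1 (-0.78, SE 0.13) completed the 7. With GC offsets 7 members also passed and the class medians were -0.83 and -0.27, with ECT2 in place of MKI67. The number ran from 2 to 13 when single libraries were left out, with 13 without replicate 1 of WT cells on PCI-34051, and 3 of the 7 remained with the replicate number as a block.

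The libraries behind these differences were as follows. CENPE was at 58.5, 43.4 and 49.9 CPM in WT cells on Tubastatin A and at 34.3, 29.6 and 32.1 CPM in 6CD2m cells, but at 31.9, 25.3 and 22.7 CPM in WT cells on PCI-34051 and at 48.0, 40.9 and 44.2 CPM in 8CDm cells. It was thus lower than WT in each library of one line and higher in each library of the other, although it passed against WT in neither (log2 fold changes -0.66 and 0.73, SE 0.16 each, adjusted p = 0.0050 and 0.0027). CENPE has the lowest GC content of the members, at 35.3%, and these values are not corrected for the GC slopes of the libraries. BUB1B was at 95.5, 86.1 and 84.3 CPM against 43.0, 45.1 and 44.1 CPM on Tubastatin A, and at 68.3, 49.6 and 52.2 CPM against 62.3, 70.5 and 70.2 CPM on PCI-34051. KIF2C was at 94.9, 81.3 and 75.3 CPM against 37.7, 39.6 and 39.2 CPM on Tubastatin A, and at 67.6, 56.3 and 50.5 CPM against 59.6, 62.4 and 64.8 CPM on PCI-34051. Both fell in 6CD2m cells and overlapped with WT in 8CDm cells. CENPF was at 324, 290 and 271 CPM against 142.6, 151 and 142 CPM on Tubastatin A, and at 230, 186 and 181 CPM against 217, 205 and 217 CPM on PCI-34051. PLK1 was at 130, 126 and 116 CPM in WT cells on PCI-34051 and at 84.7, 97.5 and 92.5 CPM in 8CDm cells, a separation in the same direction as in 6CD2m cells but smaller.

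**Figure D5:**
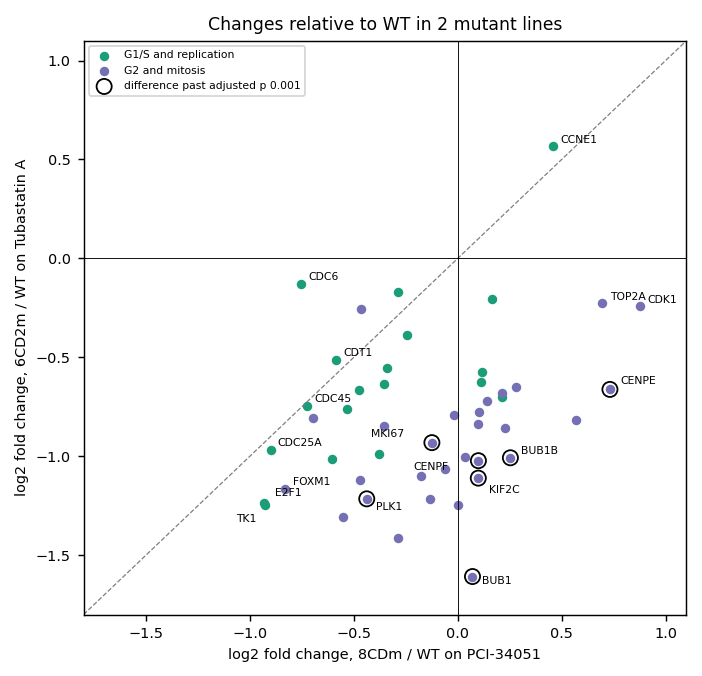
Log2 fold change against WT of each member in 6CD2m cells (y axis) and in 8CDm cells (x axis), by class, with the dashed line of equal change. The 7 circled members, whose changes differed at an adjusted p of 0.001, all belong to the G2 and mitosis class and lie below the line by 0.78 to 1.68.

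The 2 mutant lines were also compared directly, 2 days into treatment, with line and inhibitor changing together. CDC6 was higher in 6CD2m cells (log2 fold change 1.3, SE 0.14, adjusted p = 7.1e-06) and was the 1 member to be so, beside 5.60% of all genes. BUB1 (-0.91, SE 0.15), KIF2C (-0.68, SE 0.12) and PLK1 (-0.52, SE 0.09) were lower, beside 4.37% of all genes. The CDC6 values of 45.8 to 51.5 CPM in 6CD2m cells were all above the 16.6 to 21.8 CPM of 8CDm cells. Of the 19 G1/S and replication members 16 were above 0, with a median of 0.26, and of the 29 G2 and mitosis members 26 were below 0, with a median of -0.34. The medians were 0.26 and -0.32 with GC offsets. The calls of BUB1, KIF2C and PLK1 were lost when any 1 of the 6 libraries was left out and with the replicate number as a block, whereas that of CDC6 remained.

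WT cells treated for 14 days did not differ in any member between the inhibitors at a false discovery rate of 0.001 (edgeR's quasi-likelihood test, beside 0.420% of all genes), although 43 of the 48 had an unadjusted p under 0.05, beside 30.0% of all genes, and DESeq2 gave 16, beside 4.08% of the genes it tested. At a false discovery rate of 0.05, 31 members were higher on Tubastatin A and 0 lower, beside 5.89% of all genes that were higher. The number was 19 with the replicate number as a block over all 15 libraries. That block gives all 5 groups the same replicate effects and does not pair the WT libraries alone. Same-numbered 6CD1m and WT libraries on Tubastatin A deviated in opposite directions (r of -0.41, -0.09 and -0.26). The median log2 fold change was 0.58 over the members and 0.01 over all genes, and 47 of the 48 values were above 0. RRM2 had the largest value (1.03, SE 0.16, adjusted p = 0.0013), while FOXM1 (0.23, SE 0.08, adjusted p = 0.087) and E2F1 (0.35, SE 0.11, adjusted p = 0.061) were smaller. MKI67 differed by 0.62 (SE 0.10, adjusted p = 0.0023) and TOP2A by 0.83 (SE 0.21, adjusted p = 0.023).

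In both WT groups replicate 1 was the library with the highest member average, at 0.61 on Tubastatin A and 0.12 on PCI-34051. The 31 members at a false discovery rate of 0.05 became 42 without replicate 1 of the cells on PCI-34051, but 10 without replicate 2 and 6 without replicate 3 of those cells, and 9 without replicate 1 of the cells on Tubastatin A. When the 6 libraries were fitted alone the number was 6. By log2 fold change the WT level from which a mutant is measured was higher on Tubastatin A than on PCI-34051 for 47 of the 48 members. The interaction subtracts this WT difference from that between the mutant lines. Its part in the single comparisons of mutants with WT was not tested. CDC20 was at 137, 115 and 121 CPM in WT cells on PCI-34051 and at 90.9, 107 and 107 CPM in 8CDm cells. BIRC5 was at 71.9, 60.7 and 65.6 CPM against 41.2, 45.5 and 48.5 CPM, and ANLN at 150, 111 and 107 CPM against 113, 124 and 132 CPM. For these 3 genes the 8CDm libraries were above the 6CD2m libraries, and the WT libraries on Tubastatin A were above those on PCI-34051.

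Other genes of the pathway, drawn from textbook lists, were read in the same fits. Of 39 further replication genes 11 fell in 6CD2m cells against WT and 0 rose, beside 7.22% of all genes tested that fell. The falls were led by TYMS, the thymidylate synthase (log2 fold change -1.22, SE 0.17), the GINS subunit gene GINS1 (-0.99, SE 0.13) and FEN1, the flap endonuclease (-0.91, SE 0.11). Of 44 further mitotic genes 27 fell and 0 rose, led by the centromeric histone CENPA (-1.70, SE 0.15), the kinetochore genes NDC80 (-1.62, SE 0.18) and SPC24 (-1.53, SE 0.13) and the securin gene PTTG1 (-1.51, SE 0.18). TYMS and NDC80 lie on chromosome 18, which carries none of the 48 members. The medians of the replication and mitotic lists were -0.36 and -0.95.

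In 8CDm cells 7 of the 39 replication genes fell and 0 rose, led by FEN1 (-0.85, SE 0.11). Of the 44 mitotic genes 8 fell, led by CENPM (-1.16, SE 0.15), and SGO2, a protector of cohesin at centromeres, rose (0.91, SE 0.17). Over all genes tested 6.27% fell and 4.69% rose. The interaction was lower in 6CD2m cells for 9 mitotic and 0 replication genes, beside 2.65% of all genes. Among the 9 were SGO2 (-1.65, SE 0.24), NDC80 (-1.60, SE 0.25) and CENPA (-1.52, SE 0.21). Between 6CD2m and 6CD1m cells 14 replication and 25 mitotic genes were lower in 6CD2m cells and 0 of either list higher. Over all genes 6.54% were lower. In 6CD1m cells against WT 0 genes of either list passed in edgeR's test, beside 0.793% of all genes. At an unadjusted p under 0.05 in that test there were 7 replication and 8 mitotic genes, beside 32.0% of all genes. Between the WT groups CLSPN, a mediator of the replication checkpoint, was the 1 gene of these lists to pass (0.76, SE 0.10), beside 0.420% of all genes.

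Among other regulators of the cycle, genes that slow it fell beside genes that drive it in 6CD2m cells. Of 36 tested 12 fell in 6CD2m cells against WT, beside 7.22% of all genes that fell, and 0 rose. They include genes of CDK4/6 inhibitors, CDKN2D (-1.89, SE 0.19) and CDKN2C (-1.62, SE 0.13), as well as the mitotic phosphatase gene CDC25B (-1.86, SE 0.09) and TFDP1, the partner of E2F (-1.05, SE 0.09). CDKN2C was at 32.2, 26.2 and 28.3 CPM in WT cells and at 7.81, 9.42 and 10.8 CPM in 6CD2m cells. CDKN1A, which encodes the inhibitor p21, was at 193, 165 and 189 CPM in WT cells on Tubastatin A and at 205, 227 and 211 CPM in 6CD2m cells and did not pass. It was at 123, 123 and 133 CPM in 6CD1m cells, and the difference between the KDAC6 lines passed (0.76, SE 0.11, adjusted p = 6.3e-05). Of the 36 regulators 9 were lower in 6CD2m than in 6CD1m cells and 4 higher, beside 1278 and 1300 of the 19535 genes tested. CCND1, the gene of cyclin D1, fell in 6CD2m cells against WT (-0.47, SE 0.08, adjusted p = 0.00019).

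In 8CDm cells 2 of the 36 regulators rose and 5 fell, beside 4.69% of all genes that rose and 6.27% that fell. The G1 kinase gene CDK6 (1.41, SE 0.18) and its partner gene CCND2 (1.36, SE 0.14) rose, the latter from 118, 87.5 and 88.5 CPM to 242, 258 and 257 CPM. CDKN1C, which encodes the inhibitor p57, fell from 1.12, 1.2 and 1.55 CPM to 0.285, 0.217 and 0.268 CPM (-2.29, SE 0.35), with as few as 4 counts in a library. In 6CD2m cells CDKN1C was at 1.66, 1.93 and 1.67 CPM, and the interaction was 3.21 (SE 0.45, adjusted p = 0.00013).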

How the data were processed

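Total RNA was depleted of rRNA and sequenced, and the submitters' processing notes name Trimmomatic 0.39, Bowtie2 2.4.5, RSEM 1.3.3, DESeq2 1.38.2 and GRCh38, while the annotation release is not given in the sources used here. The authors deposited expected counts, which estimate the reads of each gene, were not normalized and were fractional in 21.8% of the nonzero values. They were rounded and analysed in R 4.3.3 with edgeR 4.0.16 (filter on low counts, TMM scaling, quasi-likelihood test, Benjamini-Hochberg adjustment over 19535 genes, threshold 0.001 as in the study), in a single model with 1 mean per group fitted to the 15 libraries together. The test was checked on simulated data. CPM are counts per 1000000 of the TMM-scaled library, with 0.5 added before the log in profiles. Replicate pairs correlated across genes at r of 0.962 to 0.988, and none agreed within sampling noise. GC content and lengths came from GENCODE 29 by Ensembl identifier, with GC content for 99.2% of the genes tested, and GC offsets remove from each library the smooth trend of its log2 ratios over GC content.

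The members, the pathway lists and the tests were chosen with earlier results of these data known. Members given with the value in every library were, in each comparison, of those past the threshold, the 5 that changed most by log2 fold change in either direction, and MKI67, TOP2A, CCNB1, CDK1, FOXM1, E2F1, CCNE2, MCM2, PCNA and RRM2. Other members past the threshold were given as examples of their role, pathway genes as the largest changes of their list, and CDKN1A and CCND1 whatever their values. MCM7, TTK, KIF11, ECT2 and CCNE1 were named after their values were seen.

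Replicate numbers come from the sample labels. Same-numbered libraries of the WT groups deviated together from their group means (r across genes of 0.50, 0.24 and 0.17). A fit with the replicate number as a block therefore stands beside that comparison. Its block was shared by all 5 groups, so it does not pair the WT libraries alone. Alternatives were DESeq2 1.42.0, no filter, a false discovery rate of 0.05, scaling by the upper quartile or by TMM after removal of mitochondrial and small structural RNA genes, the libraries compared alone, the replicate block, GC offsets with and without the block, and leaving out each library. Untreated cells, immunoblots and xenografts are not analysed here.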

Additional observations from a re-analysis of the deposited data

Results flagged for a closer look

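The change relative to WT cells on the same inhibitor differed between 6CD2m and 8CDm cells for 7 members by an interaction term (edgeR, quasi-likelihood test, Benjamini-Hochberg method). The differences on the log2 scale were -1.68 for BUB1 (adjusted p = 4.4e-05), -1.39 for CENPE (adjusted p = 0.00047), -1.26 for BUB1B (adjusted p = 0.00028), -1.21 for KIF2C (adjusted p = 0.00016), -1.12 for CENPF (adjusted p = 0.00012), -0.81 for MKI67 (adjusted p = 0.00088) and -0.78 for PLK1 (adjusted p = 0.00044). When same-numbered libraries were blocked, 3 of the 7 remained. Each interaction value equals the difference between the mutant lines (6CD2m less 8CDm) less that between the WT groups (Tubastatin A less PCI-34051). The G2 and mitosis medians of these were -0.34 and 0.59. Why the WT groups differ was not tested, and line and inhibitor cannot be told apart.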

How the results depend on the processing

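The number of members called in 6CD2m against WT cells on Tubastatin A (29) stayed within 1.5 times its value under all alternatives but those that left out a library (15 to 21), and that over all groups (30) was 21 to 40 without single libraries and 25 to 45 under the others. The 0 members between 6CD1m and WT cells stayed at 0 under all alternatives. In 8CDm against WT cells on PCI-34051 (7 members) the number was 22 at a false discovery rate of 0.05, 12 with DESeq2, 12 with upper-quartile scaling, 12 with no filter, 4 with GC offsets, 3 with GC offsets and the replicate block, 3 with only the libraries compared, and 4 to 8 without single libraries. Between the WT groups (0 members) it was 31 at a false discovery rate of 0.05, 16 with DESeq2, 2 with upper-quartile scaling, 9 with no filter, 1 with GC offsets, and 0 to 2 without single libraries. Between 6CD2m and 6CD1m cells (25 members) it was 12 with only the libraries compared and 12 to 34 without single libraries. Between 6CD2m and 8CDm cells (4 members) it was 16 at a false discovery rate of 0.05, 12 with DESeq2, 10 with upper-quartile scaling, 9 with no filter, 1 with the replicate block, 19 with only the libraries compared, and 1 to 2 without single libraries. For the interaction (7 members) it was 26 at a false discovery rate of 0.05, 17 with DESeq2, 15 with no filter, 3 with the replicate block, 4 with GC offsets and the replicate block, 11 with only the libraries compared, and 2 to 13 without single libraries. The cause of these shifts was not tested, except that fewer libraries enter a fit of those compared or with one left out.

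With the replicate number as a block, 21 members were called in 6CD2m against WT cells, 18 between 6CD2m and 6CD1m cells and 5 in 8CDm against WT cells. Outside the WT groups the labels do not say whether same-numbered libraries share more than a number. In no other comparison did all same-numbered libraries correlate above 0.1 in their deviations. Replicate 1 did so between 6CD2m and 6CD1m cells (r = 0.19) and between 6CD2m and 8CDm cells (r = 0.12). These correlations cannot exclude a shared culture or batch. The log2 fold changes of named members kept their direction and their side of the threshold in 840 cases, lost the threshold in 89, gained it in 22 and turned sign in 7. The 7 were all in members past no threshold. They were CCNE2 in 6CD2m cells, at -0.34 to 0.17 without single libraries, and 3 members in 8CDm cells. There CCNB1 was at -0.17 to 0.14 without single libraries, PCNA at -0.015 to 0.35, and CCNE2 at -0.11 to 0.52, at -0.25 with GC offsets and at -0.24 with offsets and the replicate block.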
